A study of Mus musculus with 2 samples.

Results

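Hepatic transcripts for lipoprotein receptors, lipases and the proteins that assist them were compared between mice with and without Lpcat3 in hepatocytes. The group was set by name and holds 9 genes: the receptors Vldlr, Lrp1 and Scarb1, the lipases Lipc, Lipg and Lpl, the sorting receptor Sort1, the heparan sulfate proteoglycan Sdc1 and the receptor chaperone Lrpap1. All probe sets (sets of short probes that read 1 transcript) annotated to these genes were taken, which gave 27 probe sets for 8 of the 9 genes, out of 45101 probe sets and 18193 named genes on the array; Lipc was not analysed here. Of the 8 genes, 7 were measured, meaning that at least 1 probe set exceeded a floor of 76.4, the median of all signals, on at least 1 array; the exception was Vldlr.

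Both groups were male mice, 12 weeks of age, on chow, whose livers were taken after a 6 hr fast. Both carried the Lpcat3fl/fl alleles, and the control group (Flox/Flox) had no Cre. The other group, L-Lpcat3 KO (Lpcat3fl/fl Albumin-Cre), carried in addition a Cre driven by the albumin promoter, so that hepatocytes lose Lpcat3, the enzyme that places arachidonate into membrane phospholipids, while Kupffer and endothelial cells keep it. Effects of the transgene itself and of the deletion cannot be told apart in this design. RNA from 5 mice per genotype was pooled onto 1 array, so each ratio rests on 1 array per genotype, the variation among mice is unknown, and no test was run.

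Lipoproteins that return to the liver are caught in the space beneath the sinusoidal endothelium by heparan sulfate proteoglycans, chiefly syndecan-1, and taken up by receptors of the LDL receptor family such as Lrp1. HDL instead docks on Scarb1, which draws in its cholesteryl esters without taking up the particle. Before uptake, lipases of 1 family trim the particles: lipoprotein lipase (Lpl) hydrolyzes triglyceride at capillary walls, and endothelial lipase (Lipg) acts mainly on HDL phospholipids. The study concerns the production of lipoproteins by these livers, and the comparison here asks whether transcripts for their uptake and trimming differed as well.

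Small differences in opposite directions were seen. Sdc1 was lower in L-Lpcat3 KO on all 4 of its probe sets, by 1.48-fold on the brightest. Lipg was 1.36-fold higher on both of its measured probe sets, and Lpl 1.32-fold higher on its bright probe set but not on its dim one. Lrp1, Scarb1, Sort1 and Lrpap1 lay within 1.05-fold by their brightest probe sets. None of the 7 measured genes reached 1.5-fold, the size used to count differences, against 7.22% of all 12084 measured genes, but only 1.89% of the 7025 genes whose mean signal was at or above 387 (the 75th percentile of all signals, here called bright). All 7 members were bright, and 14.6% of the dimmer genes passed the same size. Of their 20 measured probe sets none reached 1.5-fold, against 8.02% of all measured probe sets with 1 gene symbol. That share includes dim probe sets, whereas most of the 20 were bright. The median log2 ratio (L-Lpcat3 KO over Flox/Flox) was -0.01 over the 7 members and 0.00 over all measured genes.

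**Figure D1:**
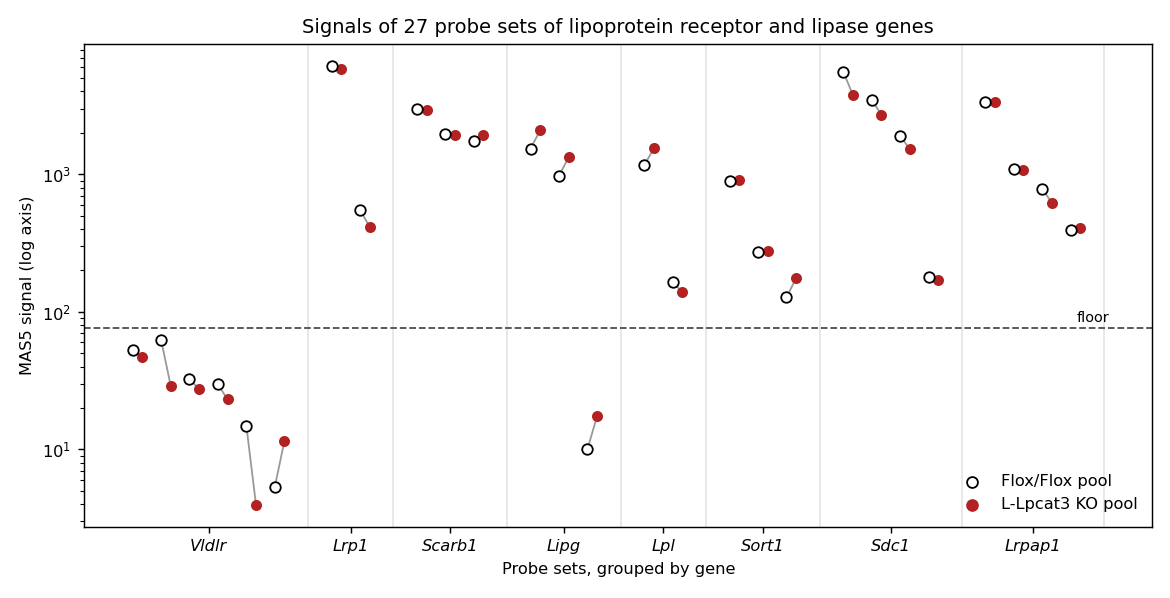
MAS5 signal (y axis, log scale) of each of the 27 probe sets (x axis, grouped by gene, brightest first) in the Flox/Flox pool (open circles) and the L-Lpcat3 KO pool (red), joined by a grey line; the dashed line is the floor of 76.4. The red circle is lower in all 4 Sdc1 probe sets and higher in all 3 Lipg probe sets. The dimmest Lipg probe set and all 6 Vldlr probe sets lie below the floor.

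Lrp1 encodes a large endocytic receptor that clears chylomicron remnants together with many other ligands. Its brightest probe set read 6129 in the Flox/Flox pool and 5845 in the L-Lpcat3 KO pool (log2 ratio -0.07). Its other probe set read 550 and 414, 1.33-fold lower (log2 ratio -0.41). Both probe sets were thus lower, though by unequal amounts. Among the 2228 genes on the array with at least 2 bright probe sets, the ratios of the 2 brightest differed by a median of 0.15 on the log2 scale and by up to 0.52 at the 95th percentile, and the gap for Lrp1 lay inside this range.

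Scarb1, the HDL receptor SR-BI, was nearly the same in both pools. Its 3 probe sets read 3005 and 2923, 1951 and 1936, and 1752 and 1929 with Flox/Flox given first in each pair. The log2 ratios of -0.04, -0.01 and 0.14 fell on both sides of 0, so no direction can be given.

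Vldlr, a receptor of triglyceride-rich particles that is most abundant in heart, muscle and fat, was below the floor throughout. Its 6 probe sets ranged from 5.33 to 62.7 in the Flox/Flox pool, and in the L-Lpcat3 KO pool from 3.95 to 46.8. In 5 of the 6 the L-Lpcat3 KO signal was the lower one, the widest gaps being 14.9 against 3.95 and 62.7 against 28.9. All of these signals were below the median signal of the arrays, and no ratio is given for this gene.

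Both lipases that could be read were higher in L-Lpcat3 KO by their brightest probe sets. The 2 measured probe sets of Lipg read 1538 and 975 in Flox/Flox against 2092 and 1330 in L-Lpcat3 KO. Their log2 ratios were 0.44 and 0.45, the closest agreement between measured probe sets among the members (SD 0.004, n = 2 probe sets). Both were read on the same arrays, so this agreement does not measure the variation among mice. The third probe set of Lipg was below the floor, at 10.04 and 17.4.

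Lpl read 1167 in the Flox/Flox pool and 1540 in the L-Lpcat3 KO pool on its brightest probe set (log2 ratio 0.40). Its other probe set was dim, at 163 and 140, and differed in the opposite direction (log2 ratio -0.23). This gap of 0.63 on the log2 scale lay within the spread seen elsewhere: among 1696 genes with a bright first and a dim second probe set the median gap was 0.27, and 14.4% had a gap as wide as that of Lpl. The direction for Lpl therefore rests on 1 probe set. Of the 7025 bright genes, 4.84% were at least as far from equality as Lipg and 6.45% as Lpl.

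**Figure D2:**
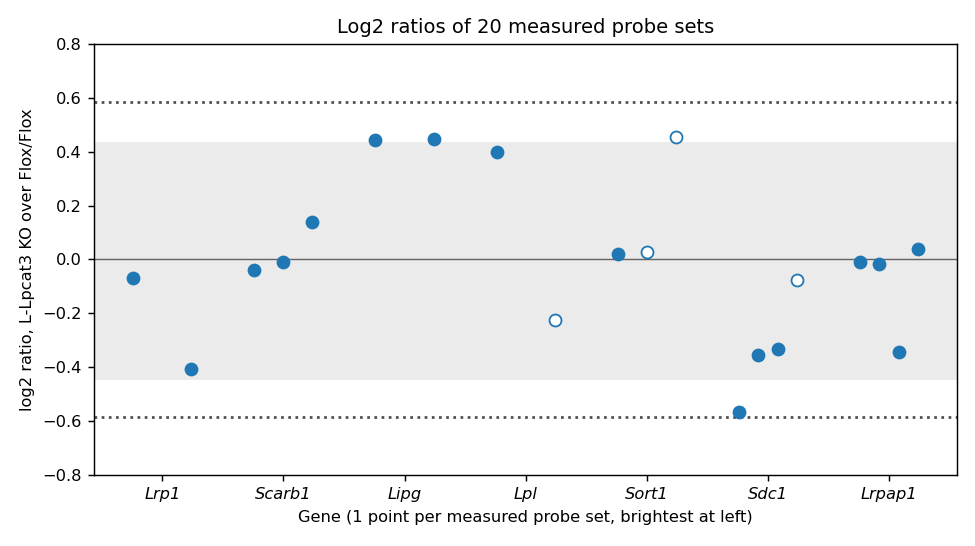
The y axis gives the log2 ratio (L-Lpcat3 KO over Flox/Flox) and the x axis the 20 measured probe sets of 7 genes, brightest at the left within each gene; filled points have a mean signal of at least 387 and open points a lower one. Dotted lines mark 1.5-fold and the grey band holds the central 95% of bright genes (-0.45 to 0.43). The brightest Sdc1 probe set (-0.57) lies below the band, both Lipg probe sets (0.44 and 0.45) lie just above it, and the 2 Lpl probe sets fall on opposite sides of 0.

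Sdc1 showed the widest difference of the 7 genes. Syndecan-1 is the main proteoglycan with which hepatocytes bind triglyceride-rich remnants. Its probe sets read 5575, 3473, 1913 and 180 in Flox/Flox, and 3763, 2715, 1519 and 170 in L-Lpcat3 KO. The log2 ratios were -0.57, -0.36, -0.33 and -0.08, with a mean of -0.33 and an SD of 0.20 (n = 4 probe sets). The signal was lower in L-Lpcat3 KO on all 4, and by least on the dim one. The brightest probe set is of a kind (_x_at) that holds probes which can also bind other transcripts. Without it Sdc1 was 1.28-fold lower. Of the bright genes, 2.05% were at least as far from equality as the value of the brightest probe set.

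Sort1 encodes sortilin, a Golgi sorting receptor that binds apoB. It read 899 and 913 on its brightest probe set (log2 ratio 0.02) and 272 and 277 on the next (0.03). The dimmest probe set read 128 against 175, the higher value being that of L-Lpcat3 KO (0.45). All 3 were above 0, and the wide one is also the one nearest to the floor.

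Lrpap1 encodes RAP, the chaperone that keeps receptors of the Lrp family from binding ligand during their export from the ER. Its 4 probe sets read 3365, 1095, 785 and 396 in the Flox/Flox pool, and in the L-Lpcat3 KO pool 3346, 1082, 619 and 407. Of these, 3 differed by less than 1.03-fold, and 1 was 1.27-fold lower (log2 ratio -0.34). Of the 7 measured genes, 4 (Lrp1, Lipg, Sort1 and Sdc1) had all measured probe sets on 1 side of 0. The same share over all genes was not computed, and probe sets of 1 gene are read on the same arrays. The count is therefore a description only.

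**Figure D3:**
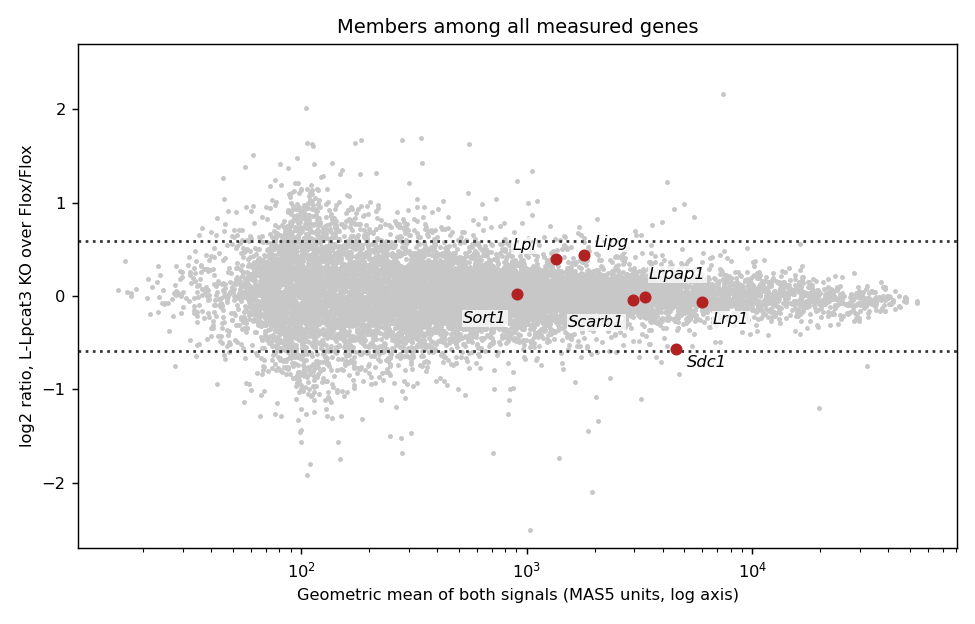
Each grey point is 1 of 12084 measured genes by its brightest probe set and red points are the 7 measured members; the x axis is the geometric mean of both MAS5 signals on a log scale and the y axis the log2 ratio (L-Lpcat3 KO over Flox/Flox); dotted lines mark 1.5-fold. Sdc1 (-0.57) lies lowest of the 7, close to the lower dotted line, and Lipg (0.44) and Lpl (0.40) lie between 0 and the upper one, while Sort1, Scarb1, Lrpap1 and Lrp1 lie near 0.

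A wider set of 86 genes of lipoprotein uptake and lipolysis, in 5 groups, was read beside the members. Of these, 71 were measured, 27 with ratios above 0 and 44 below, and the median was -0.04. At the 1.5-fold size 2 were higher and 2 lower, together 5.63%, against 7.22% of all genes. All 4 were bright, which makes 7.55% of the 53 bright genes of the wider set against 1.89% of all bright genes. The wider set was chosen with earlier results of these data known, and the study names Pltp, 1 of the 4, among its highest changes. The 2 shares are therefore not an independent comparison. Of the 4, 2 (Pcsk5 and Sdc3) had another probe set that differed the other way. Over all genes 4.05% were at least 1.5-fold higher and 3.17% lower, so that 56.1% of the differences were on the high side; after a loess fit of ratio on signal this share was 39.3%, while the 4 genes of the wider set counted 2 and 2 as before.

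Among 12 other lipoprotein and scavenger receptors, none reached 1.5-fold and 9 were below 0 (median -0.05). The endothelial scavenger receptor Stab2 was highest (891 against 1033, log2 ratio 0.21). The asialoglycoprotein receptor subunit Asgr2 was lowest (1646 against 1363, -0.27), and its partner Asgr1 read 12111 and 11915 (-0.02). Lrp6 and Lrp10, relatives of Lrp1 chosen for mention after their values were seen, had log2 ratios of 0.06 and -0.10.

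Among 10 adaptors and trafficking factors none reached 1.5-fold either (median -0.11). Commd1, which takes part in returning receptors from endosomes, was highest (2564 against 3007, 0.23). Snx17, a sorting nexin that recycles Lrp1, was lowest (5576 against 4754, -0.23). The retromer subunit Vps35 was brightest (5855 against 5387, -0.12). Pdzk1, the adaptor that keeps Scarb1 at the hepatocyte surface, was chosen for mention after its values were seen and read 1521 and 1618 (0.09).

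Of 14 measured cofactors and regulators of lipases, 6 had ratios above 0 and the median was -0.03. Gpihbp1, the endothelial protein that carries Lpl to the capillary lumen, had the highest ratio (1091 against 1398, 1.28-fold, on its 1 probe set). Pcsk5, a proprotein convertase that cleaves endothelial lipase and other substrates, was 1.57-fold lower by its brightest probe set (608 against 387), but another of its probe sets had a log2 ratio of 0.59 and so differed the other way. Apoe, the ligand by which remnants bind Lrp1 and heparan sulfate, read 42340 and 40054 (-0.08). Some others were chosen for mention after their values were seen. The Lpl inhibitor Angptl4 read 6103 and 6158 (0.01), the Lpl activator Apoc2 had a log2 ratio of 0.17 and the inhibitor Apoc3 one of -0.01. The lipase maturation factor Lmf1 had a log2 ratio of -0.06, and its relative Lmf2 read 351 and 417 (0.25). Angptl8, which acts on Lpl with other Angptl proteins, read 304 and 358 (0.23).

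Of 9 measured genes for other lipases and enzymes that act on HDL, 6 were above 0 (median 0.06). The phospholipid transfer protein Pltp, which remodels HDL, had the highest ratio of the wider set: 2755 against 6409 (2.33-fold, higher in L-Lpcat3 KO), with a log2 ratio of 0.69 on its other probe set. Lipe, hormone-sensitive lipase, was lowest (359 against 276, -0.38), and the esterase Aadac was brightest (18194 against 18430, 0.02).

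Heparan sulfate proteoglycans and the enzymes that build their chains were compared because Sdc1 belongs to them. Of 26 measured, 17 were below 0 (median -0.05), 1 was at least 1.5-fold higher and 1 lower. The glypican Gpc1 was 1.91-fold higher (294 against 561) on its 1 probe set. The brightest probe set of Sdc3 was 1.59-fold lower (677 against 426), yet a dimmer one had a log2 ratio of 0.88. Sdc4 read 9271 and 9353 (0.01). Sdc2, which like Sdc4 is a syndecan of hepatocytes and was chosen for mention after its values were seen, read 3387 and 3292 (-0.04). Over all measured probe sets the ratios ran from -0.13 to -0.04 for Sdc2 and from -0.09 to 0.01 for Sdc4. The 3 bright Sdc1 probe sets were further from 0 than these, and the dim one (-0.08) was not; the difference between the syndecans was not tested.

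**Figure D4:**
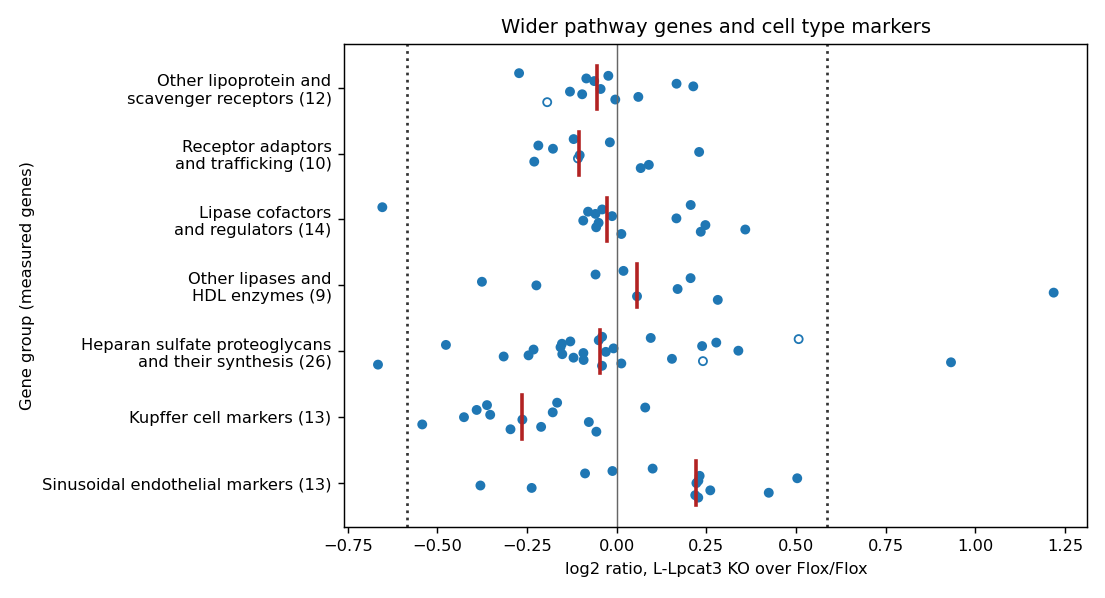
Points are measured genes of 5 groups of lipoprotein uptake and lipolysis and of 2 marker lists (y axis, with their numbers), placed by log2 ratio (x axis, L-Lpcat3 KO over Flox/Flox); open points have 1 array at the floor, red bars mark group medians and dotted lines 1.5-fold. Pltp (1.22) and Gpc1 (0.93) lie to the right of the dotted lines and Sdc3 (-0.67) and Pcsk5 (-0.65) to the left; the medians are -0.26 for Kupffer cell and 0.22 for sinusoidal endothelial markers.

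In bulk liver, fewer cells of a type and less RNA per cell cannot be told apart. Several of these genes are expressed outside hepatocytes: Gpihbp1 and Lipg in endothelium, and Lpl in macrophages and fat. Of 13 sinusoidal endothelial markers, 9 were higher in L-Lpcat3 KO, with a median of 0.22 and a summed signal of 11426 against 13144. They included Clec4g (2595 against 3038) and Lyve1 (575 against 772, with its other probe set at a log2 ratio of 0.001). The 4 that were lower by their brightest probe sets were Cdh5 (329 against 252), Pecam1 (-0.24), Tek (-0.09) and Egfl7 (-0.01). The ratios of Lipg, Gpihbp1 and the brightest Lpl probe set were on the same side of 0 as the median of this list. The other Lpl probe set (-0.23) was on the opposite side. The part of endothelial cells in these ratios was not tested. Of 13 Kupffer cell markers, 12 were lower by their brightest probe sets (median -0.26, summed signal 21862 against 20558). The falls ran from Clec4f (1441 against 1385) to Timd4 (194 against 133, log2 ratio -0.54). Slc40a1, the brightest of the list, was higher (8538 against 9020). The median of this list was on the opposite side of 0 to the brightest Lpl probe set and on the same side as the other one (-0.23). The part of Kupffer cells in the Lpl signal was not tested. Of 5 adipocyte markers with a probe set, 2 were measured (median 0.08). Fabp4, which endothelium and macrophages also express, read 644 and 776 on its brightest probe set (0.27, the same side as the brightest Lpl probe set). Another Fabp4 probe set was at -0.61, and Retn read 82.9 and 23.4. The defining markers Adipoq (61.8 and 9.21) and Lep (4.17 and 2.91) were below the floor on both arrays, and the part of fat in the Lpl signal was not tested. For Sdc1, which also marks plasma cells, a list of 6 plasma cell genes was added after its values were seen. Of these, 2 were measured, Jchain at 117 and 98.8 and Mzb1 at 218 and 250, which differed in opposite directions. The part of plasma cells in the Sdc1 signal was not tested.

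The remaining checks concern the whole arrays. Hepatocyte markers were bright, as the tissue label says, with a median log2 ratio of -0.06 over 12 genes. Of these, 11 were slightly below 0, and Alb (37859 and 39856) was the 1 above it. Stellate cell markers had a median of 0.04 over 10 measured genes, 7 above 0 and 3 below. Col3a1 was 1.53-fold lower (1758 against 1151). Neutrophil (-0.11 over 6), bile duct (0.40 over 3) and exocrine pancreas markers (-0.35 over 2) were mostly near or below the floor, apart from the elastase gene Cela1 (2828 against 2285). Of the 3 bile duct genes, 2 were above 0 and Sox9 was lower (162 against 77.6). Lpcat3 itself read 3310 in the Flox/Flox pool and 1305 in the L-Lpcat3 KO pool on its 1 probe set, which may lie outside the deleted exon. For its own PCR of whole liver, the study holds that the remaining Lpcat3 mRNA likely came from cells without the Cre, such as Kupffer cells. It also reports a strong reduction of Lpcat3 in primary hepatocytes of the knockout mice, which it reads as fitting that account. Neither account was tested here. The mean of each array without its lowest and highest 2% of signals was 500.0, so no further scaling was applied.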

How the data were processed

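Total liver RNA was hybridized to Affymetrix whole-genome mouse arrays, 1 per genotype. The intensity deposited for each probe set is a MAS5 signal according to the submitters' processing notes (version not given in the sources used here), a linear, background-corrected summary of probe pairs that was already scaled to a common array level. The number of arrays limits the precision. Of 45101 probe sets, 34945 had 1 gene symbol through the platform annotation, updated by gene ID to RefSeq (GRCm38.p6); 932 with several genes, 9160 unnamed here and 64 controls were left out. Of the wider set, 78 of 86 genes had a probe set. Signals below the floor were raised to it, log2 was taken, and a gene took its brightest measured probe set. No test was run with 1 array per group.

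The members and lists were chosen with earlier results of these data known. From each group of the wider set the highest, lowest and brightest gene and those 1.5-fold apart were named. Scripts were checked on simulated data. Alternatives varied the scaling, the floor and the gene summary. Values were computed in Python 3.11.15 with pandas 2.3.3, numpy 2.4.6 and scipy 1.17.1, loess with statsmodels 0.14.6, and plots with matplotlib 3.10.9.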

Additional observations from a re-analysis of the deposited data

How the results depend on the processing

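No member reached 1.5-fold under any of 10 alternatives, and the member median stayed between -0.02 and 0.03. Lipg stayed between 0.43 and 0.45, whereas Sdc1 was -0.36 by the second brightest probe set or when _s_at and _x_at probe sets were left out, and -0.33 by the mean of probe sets. Lpl was 0.09 by the mean and -0.23 by the second brightest, and Lrp1 -0.24 and -0.41. The median log2 ratio of the wider set, -0.041 as reported, was -0.013 by the mean of probe sets and 0.075 by the second brightest (28 genes). Its count of genes 1.5-fold apart was 10 with the floor lowered to the 25th percentile, 10 with no floor, and 2 with a pseudocount in place of the floor, 2 by the mean and 2 by the second brightest, against 4. Over all genes the count was 872, and it was 3213 and 116 with the floor lowered to the 25th or raised to the 75th percentile, 5141 with no floor and 427 by the second brightest probe set (5166 genes). No paired analysis was possible because each genotype is 1 pooled array.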
